A study of Mus musculus with 12 samples.

Results

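The genes described are 9 enzymes of amino acid breakdown in liver: Tat, Hpd, Hgd and Fah of tyrosine breakdown, Tdo2 of tryptophan breakdown, Sds and Hal for serine and histidine, Agxt for glyoxylate and alanine, and Prodh for proline. They were taken by gene symbol, with earlier results of these data known. They are 9 of the 19012 gene symbols in the data, each with 1 transcript. RNA sequencing compared 4 wild-type mouse livers with 4 livers and 4 liver tumors from double knockout (DKO) mice without E2f7 and E2f8, the atypical E2F factors that repress transcription. DKO liver and DKO tumor of the same number carry the same animal code in the names of the deposited data, so every DKO liver comes from an animal that also gave a tumor. The 4 wild-type codes belong to other mice. How and in which cells the E2f genes were deleted, and the strain, sex and age of the mice, are not given in the sources used here. Levels are in RPKM (reads per kilobase of exon and per M reads, M for mega), a scale that corrects for transcript length and allows levels of different genes to be set side by side.

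As background, the liver takes up most of the amino acids that the gut and muscle release, and its hepatocytes hold the enzymes that strip off the nitrogen and burn or convert the carbon skeleton. Several of these enzymes are induced at birth, by fasting, by glucagon and by glucocorticoids, and Tat and Tdo2 are classic examples of hormone-induced liver genes. In the liver lobule, Sds and Hal are known as genes of periportal hepatocytes, which lie where blood enters.

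The stretches just upstream of 4 of the genes are shown because the text below returns to these genes: Agxt and Tdo2 were lower in every tumor than in every wild-type liver, and Tat and Hal had different tumors at the bottom. Whether levels depend on these stretches was not tested. Each is the 250 bases before the annotated start in the RefSeq promoter table (build GRCm38.p6), written 5′ to 3′ on the strand of the gene, and 8 of the 9 genes matched an entry. Capitals mark exact matches to the motifs listed after the sequences, and a match to a motif on the other strand appears as its reverse complement. The windows are chr1:93134990-93135239 on the plus strand for Agxt, chr3:81975729-81975978 on the minus strand for Tdo2, chr8:109990186-109990435 on the plus strand for Tat and chr10:93488518-93488767 on the plus strand for Hal.
Agxt: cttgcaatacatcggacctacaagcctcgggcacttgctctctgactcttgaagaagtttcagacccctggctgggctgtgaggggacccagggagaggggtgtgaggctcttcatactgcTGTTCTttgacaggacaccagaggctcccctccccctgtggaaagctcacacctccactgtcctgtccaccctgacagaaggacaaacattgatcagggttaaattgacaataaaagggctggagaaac
Tdo2: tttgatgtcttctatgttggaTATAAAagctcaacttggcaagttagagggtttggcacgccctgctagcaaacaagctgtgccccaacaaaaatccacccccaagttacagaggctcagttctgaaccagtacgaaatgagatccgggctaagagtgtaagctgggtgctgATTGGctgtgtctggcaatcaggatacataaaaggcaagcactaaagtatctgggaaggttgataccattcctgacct
Tat: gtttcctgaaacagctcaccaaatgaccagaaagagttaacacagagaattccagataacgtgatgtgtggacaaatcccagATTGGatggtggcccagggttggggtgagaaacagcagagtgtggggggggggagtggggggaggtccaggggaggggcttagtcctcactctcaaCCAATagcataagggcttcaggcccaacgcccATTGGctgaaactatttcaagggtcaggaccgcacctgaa
Hal: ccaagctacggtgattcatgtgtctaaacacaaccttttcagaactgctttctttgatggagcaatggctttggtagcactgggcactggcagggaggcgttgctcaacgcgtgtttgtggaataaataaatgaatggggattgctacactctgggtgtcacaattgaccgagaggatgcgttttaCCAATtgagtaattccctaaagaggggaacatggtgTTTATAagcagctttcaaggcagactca

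Exact matches to 6 short motifs were sought on both strands of the 8 windows and of 32851 windows of all genes in the table. The CCAAT box (CCAAT) was in 4 windows, those of Tat, Tdo2, Hgd and Hal, and in 33.8% of all windows. Tat held it 3 times, at 40, 72 and 168 bases upstream, and Hgd at 23 and 150 bases. The TATA box core (TATAAA) was in the windows of Tdo2, Hgd and Hal and in 12.4% of all, and of these the match in Hal lay closest to the start, 28 bases upstream on the other strand. The glucocorticoid receptor hexamer (TGTTCT) was in Agxt only among the 8, at 129 bases upstream, and in 16.1% of all windows. The HNF1 hexamer (GTTAAT, 6.43% of all windows), the HNF4 motif (CAAAGTCCA, 0.384%) and the C/EBP palindrome (TTGCGCAA, 0.164%) had no exact match in these 8 windows. No matches overlapped. A match describes letters in the window and was not tested as a binding site.

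The libraries held 7.985 to 15.956 M reads, and a member had from 72 reads (Sds in tumor 4) to 23020 reads (Tdo2) in a library. Albumin (Alb) was the gene with the highest RPKM in all 12 libraries, taking 4.22 to 22.46% of reads, and the summed level of 6 hepatocyte markers ran from 61210 to 87210 RPKM in wild-type livers, 59190 to 130700 in DKO livers and 88500 to 159700 in tumors. That sum is mostly Alb, and the 6 markers did not move alike: tumor against wild-type liver gave 0.79 for Alb, 0.58 for Trf, 0.28 for Fgb, 0.19 for Apoa1, −0.82 for Ttr and −0.87 for Serpina1c on the log2 scale, none past the limma test and Ttr alone with an unadjusted p below 0.05. Summed macrophage markers ran from 93.85 to 273.3 RPKM in wild-type livers, 183.6 to 506.5 in DKO livers and 36.93 to 229.7 in tumors, and stellate cell markers from 99.02 to 135 in wild-type livers, 95.08 to 322.1 in DKO livers and 53.63 to 230.3 in tumors. Summed cholangiocyte markers reached 45.95, 175.1 and 123.6 RPKM at most in the same order of groups, and endothelial markers 63.37, 99.13 and 78.85, with the cholangiocyte marker Cftr at 0 in at least 1 library. E2f8 was read at 1.66 to 4.30 RPKM in wild-type livers, 2.80 to 20.8 in DKO livers and 1.66 to 12.2 in tumors, and E2f7 stayed below 0.5 RPKM in every library. These values cover all exons and the deleted part is not given, so they do not check the genotype. In the names of the deposited data, the tag L02 goes with every DKO liver and with wild-type livers 1 and 2, and the tag L03 with every tumor and with wild-type livers 3 and 4. The labels do not say what the tags are. DKO tumor and DKO liver share no tag, so tag and tissue cannot be told apart in that comparison.

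In DKO tumors all 9 enzymes had a mean below that of wild-type liver on the log2(RPKM + 1) scale, and 1 of them, Agxt, fell past an adjusted p of 0.05 (limma over 11351 genes, Benjamini-Hochberg). The share of all genes that fell in this comparison was 0.67%, and that of genes called in either direction 1.9%. A negative log2 difference, called or not, was found for 52.9% of all genes. The median log2 difference of the 9 was −1.02, beside −0.02 over all genes tested, and 5 of the 9 had an unadjusted p below 0.05, all of them lower, beside 10.4% of all genes lower at that level. Every one of the 9 was also negative after median-of-ratios scaling and after quantile normalization, and among the libraries with tag L03 alone, where the median was −0.92 and none passed with limma. In DKO livers against wild-type livers 5 of the 9 had a negative log2 difference, beside 39.5% of all genes. None of the 9 passed the test with limma, nor with voom on the recovered reads. Of the 9, 1 had an unadjusted limma p below 0.05 (lower, beside 3.24% of all genes), and 0 of the 11351 genes (0%) were called. With tag L02 alone the median of the 9 was −0.10 beside −0.08 over all libraries. In DKO tumors against DKO livers all 9 were negative, beside 62.8% of all genes (median −0.88, and −0.09 over all genes). None of the 9 passed with limma or voom. Of the 9, 6 had an unadjusted limma p below 0.05 (all lower, beside 12% of all genes), and 1 gene (0.00881%) was called over all. Tumor and wild-type liver, and tumor and DKO liver, share the tumor libraries, so the 2 sets of negative values are not independent. In bulk tissue, fewer hepatocytes of a kind and less RNA per hepatocyte cannot be told apart.

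**Figure D1:**
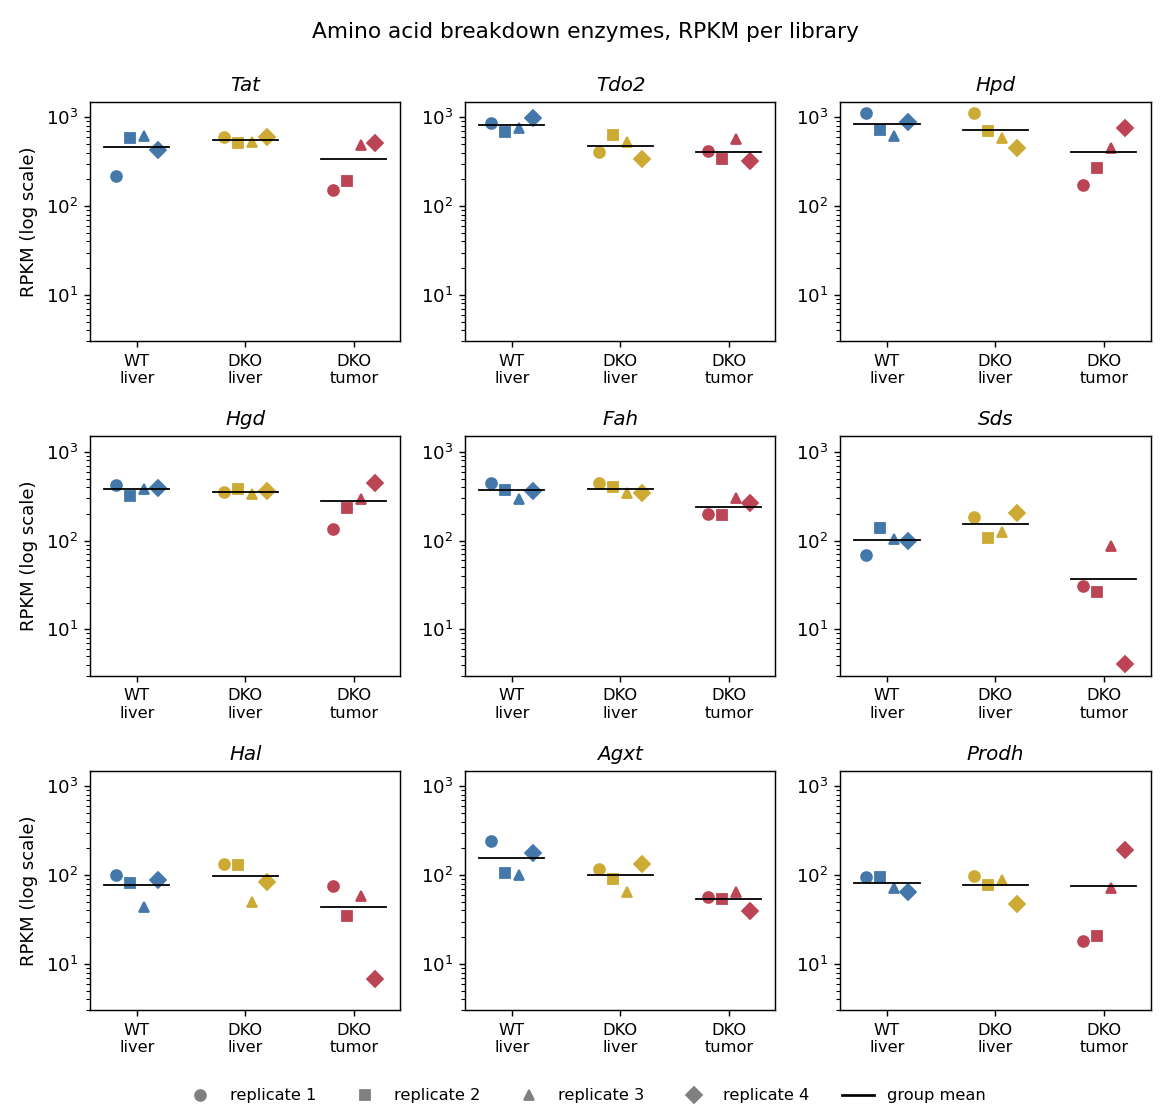
RPKM (log axis) of the 9 enzymes in each library, grouped as wild-type liver, DKO liver and DKO tumor; marker shapes give the replicate number, which is the animal for DKO liver and tumor, and lines give group means. All 4 tumors lie below all wild-type livers for Agxt and Tdo2, and the tumors spread widest for Sds, from 4.117 to 86.52 RPKM.

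Agxt encodes alanine-glyoxylate aminotransferase, the liver enzyme that converts glyoxylate to glycine and so keeps it from becoming oxalate; it lies on mm9 chr1:95031852-95041997. Wild-type livers had 242, 106, 99.3 and 179 RPKM in the order of their numbers. DKO livers had 116.5, 89.8, 65.1 and 132.5 RPKM, and DKO tumors 56.0, 53.4, 64.6 and 39.6. The tumors formed the tightest group and lay below both other groups, though tumor 3 (64.6) and DKO liver 3 (65.1) nearly met. These values are unscaled. Median-of-ratios scaling divides DKO liver 3 by 1.287 and tumors 1 to 3 by 0.759, 0.938 and 1.118. That puts Agxt in these tumors above DKO liver 3, so tumors and DKO livers overlap after scaling. DKO livers overlapped the wild-type range. Mean RPKM was 156.7 ± 67.5 in wild-type liver, 101.0 ± 29.7 in DKO liver and 53.4 ± 10.4 in tumor (SD, n = 4 each). Tumor against wild-type liver gave a log2 difference of −1.46 ± 0.30 (SE; limma adjusted p = 0.0297), 63.6% lower on this scale. DKO liver lay between them, at −0.58 ± 0.30 against wild-type liver (adjusted p = 0.445), and tumor against DKO liver gave −0.88 ± 0.30 (adjusted p = 0.189). The fall of Agxt from wild-type liver to tumor was −1.33 among the libraries with tag L03 alone, where it did not pass (adjusted p = 0.224), and −1.51 with the libraries of DKO animals 1 and 2 left out (adjusted p = 0.206). It passed in 7 of the 12 fits that left out a library, and did not without wild-type liver 1 (adjusted p = 0.105) or 4 (0.107) or without tumor 1 (0.0655), 2 (0.0846) or 4 (0.0587).

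Tdo2 encodes tryptophan dioxygenase, which opens the ring of tryptophan and commits it to the kynurenine pathway; it lies on mm9 chr3:81762335-81779649. It had 861, 692, 756 and 990.4 RPKM in wild-type livers. DKO livers had 409, 633, 532 and 339.6 RPKM, and tumors 413, 336, 573.5 and 326. Every DKO library, liver or tumor, was below every wild-type library, and the DKO livers and tumors overlapped. Tdo2 was the only member of the 9 below wild-type liver without overlap in DKO liver, where 1.96% of all genes were; in tumors it shared this with Agxt, 2 of 9 beside 6.32% of all genes. The log2 difference was −1.02 ± 0.26 (SE) in tumors (limma adjusted p = 0.0570) and −0.81 ± 0.26 in DKO livers (adjusted p = 0.295), so neither passed the threshold. Tumor against DKO liver gave −0.21, with a 95% interval from −0.76 to 0.34. Tdo2 passed in tumors against wild-type livers after median-of-ratios scaling (adjusted p = 0.0466), without tumor 3 (0.0246) and without DKO liver 4 (0.043).

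The 4 enzymes that act in series on tyrosine had no call in any comparison with limma or voom. Hpd and Fah had an unadjusted limma p below 0.05 in tumor against wild-type liver, and Tat, Hpd and Fah in tumor against DKO liver. Tat, tyrosine aminotransferase, takes the nitrogen off tyrosine and lies on mm9 chr8:112514356-112523700. Wild-type livers had 217, 587, 609 and 425.5 RPKM, DKO livers 599.9, 512, 521 and 599.8, and tumors 152, 192, 493.5 and 519.6. Tumors 1 and 2 were below every wild-type and DKO liver, while tumors 3 and 4 lay within the wild-type range and wild-type liver 1 was itself low. Mean RPKM was 459.7 ± 181, 558 ± 48.3 and 339 ± 194 (SD, n = 4 each) in the same order, and tumor against wild-type liver gave −0.53 ± 0.41 (SE; limma adjusted p = 0.521).

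Hpd, hydroxyphenylpyruvate dioxygenase, makes homogentisate and lies on mm9 chr5:123621815-123632694. Its 4 wild-type livers had 1117, 727, 619 and 882 RPKM, the DKO livers 1125, 709, 580.4 and 450.6, and the tumors 171, 265, 450.6 and 753. Tumors 1, 2 and 3 lay below every wild-type liver, and tumor 4 was inside the wild-type range. The log2 difference of tumor from wild-type liver was −1.21 ± 0.41 (SE; limma adjusted p = 0.133), and −1.06 within tag L03. Hgd, homogentisate dioxygenase, opens the ring of homogentisate and lies on mm9 chr16:37580335-37632105. It had 421, 318.5, 381.5 and 395 RPKM in wild-type livers, 352, 378, 335 and 362 in DKO livers, and 136, 236, 296 and 445 in tumors. DKO livers were the most uniform group, and the tumors ran from below to above the whole wild-type range, with a difference of −0.56 ± 0.29 (SE; limma adjusted p = 0.311).

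Fah, fumarylacetoacetate hydrolase, carries out the last step to fumarate and acetoacetate, and its loss lets toxic intermediates build up in hepatocytes. It lies on mm9 chr7:91733680-91754259. Wild-type livers had 446, 372, 296 and 366 RPKM, DKO livers 441, 399, 345 and 347, and tumors 200.0, 195, 298.5 and 268.5. All 4 tumors were below all 4 DKO livers, and tumor 3 reached the lowest wild-type liver. Tumor against DKO liver gave −0.69 ± 0.21 (SE; limma adjusted p = 0.151) and tumor against wild-type liver −0.63 ± 0.21 (adjusted p = 0.125). Between DKO liver and wild-type liver Fah differed by 0.06, with a 95% interval from −0.39 to 0.51, and this small value turned negative after median-of-ratios scaling.

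Sds and Hal release ammonia directly from serine and histidine. Sds, serine dehydratase, lies on mm9 chr5:120926555-120933913 and overlaps the gene 1300012G16Rik on the opposite strand; whether strand was used in counting is not stated, so reads of the pair cannot be told apart. It had 68.6, 138, 105 and 100.1 RPKM in wild-type livers, 185, 106, 125 and 207 in DKO livers, and 30.5, 26.2, 86.5 and 4.12 in tumors. All tumors were below all DKO livers, and tumor 3 alone reached the wild-type range. Tumor against DKO liver gave −2.60 ± 0.64 (SE), the largest difference among the 9 in that comparison, at a limma adjusted p of 0.0963, and tumor against wild-type liver gave −2.02 ± 0.64 (adjusted p = 0.120). Without tumor 3 both passed, at adjusted p = 0.0169 against DKO liver and 0.0236 against wild-type liver. Sds, Fah and, by a narrow margin, Agxt were the 3 of 9 below DKO liver in tumors without overlap in unscaled RPKM, beside 4.08% of all genes. For Agxt this does not hold after median-of-ratios scaling.

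Hal, histidine ammonia-lyase, lies on mm9 chr10:92951512-92979487. Wild-type livers had 99.6, 81.6, 43.4 and 89.2 RPKM, DKO livers 133, 129, 50.5 and 83.1, and tumors 76.0, 34.4, 58.45 and 6.76. Tumor 4 was the lowest library for Hal as for Sds, tumor 2 was also below every wild-type liver, and tumors 1 and 3 lay within the wild-type range. Tumor against wild-type liver gave −1.18 ± 0.61 (SE; limma adjusted p = 0.318), and tumor against DKO liver −1.48 ± 0.61 (adjusted p = 0.258).

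Prodh, proline dehydrogenase of the mitochondria, lies on mm9 chr16:18071818-18089282. Wild-type livers had 95.3, 95.4, 72.2 and 65.3 RPKM, DKO livers 97.4, 77.8, 88.0 and 47.8, and tumors 18.1, 20.5, 71.2 and 192. The tumors lay on both sides of the wild-type range, tumors 1 and 2 well below it and tumor 4 above it. Their mean of 75.5 ± 81.7 RPKM was close to the wild-type mean of 82.1 ± 15.6 (SD, n = 4 each), and tumor 3 alone lay near it. On the log2 scale the difference was −0.74 ± 0.60 (SE; limma adjusted p = 0.542).

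**Figure D2:**
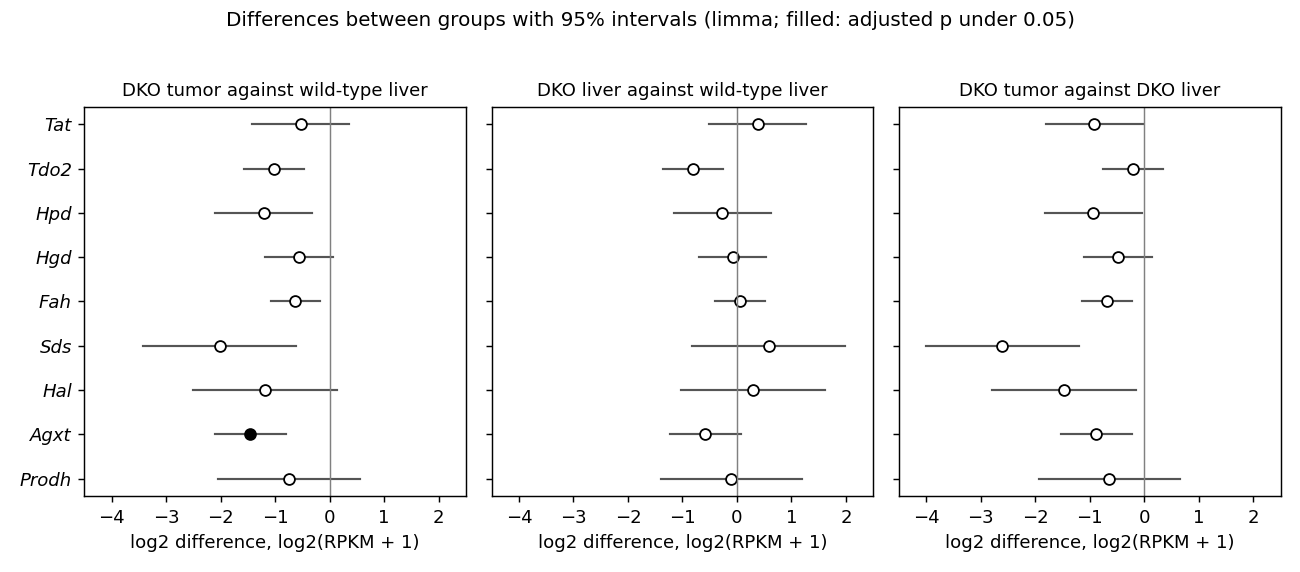
Log2 differences (log2(RPKM + 1)) of the 9 enzymes in the 3 comparisons with 95% intervals from limma; filled points have an adjusted p under 0.05. Agxt in tumor against wild-type liver, at −1.46, is the only filled point, and the 9 points lie left of 0 in both comparisons of tumor.

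In wild-type liver the order of mean RPKM was Hpd (836), Tdo2 (825), Tat (459.7), Hgd (379), Fah (369.8), Agxt (157), Sds (103), Prodh (82.1) and Hal (78.4). Libraries of neighbours in this order overlapped except between Tdo2 and Tat and between Fah and Agxt, though Tat in wild-type liver 1 (217) lay below the highest Agxt (242). In DKO liver the same 5 led, with Hpd (716) and Tat (558) highest and Fah (383) and Hgd (357) lowest of them, and every library of these 5 lay above every library of the other 4, of which Sds (156) was highest. In tumors the order was Tdo2 (412), Hpd (410.1), Tat (339), Hgd (278), Fah (240.4), Prodh (75.5), Agxt (53.4), Hal (43.9) and Sds (36.8). Fah and Prodh were the only neighbours there without overlap, and Prodh in tumor 4 (192) reached above the lowest tumors of Tat, Hpd and Hgd. Sds was thus sixth of the 9 in DKO liver and last in tumor.

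The tumors differed from each other in which enzymes were low. Of the 9 enzymes, 8 were below every wild-type liver in tumor 1 and all 9 in tumor 2. Tumor 3 had 4 below and tumor 4 had 5, while 2 enzymes of tumor 4, Hgd and Prodh, were above every wild-type liver. Of 73 other enzymes of amino acid breakdown, 61, 55, 29 and 43 were below every wild-type liver in tumors 1 to 4, so such counts were not particular to the 9. The share of all genes was not counted for single tumors. Against the liver of the same animal, 8, 9, 7 and 6 of the 9 were lower in tumors 1 to 4, with median log2 differences of −1.37, −1.41, −0.18 and −0.21. The same held for 65, 67, 42 and 37 of the 73 other enzymes. Hpd in animal 1 was 1125 RPKM in liver and 171 in tumor, whereas in animal 4 it was 450.6 in liver and 753 in tumor. Sds and Prodh moved furthest apart in animal 4, where Sds went from 207 RPKM in liver to 4.12 in tumor and Prodh from 47.8 to 192. Tumors 1 and 2 were thus low in tyrosine, serine and proline enzymes alike, tumor 3 differed from its own liver by −0.53 (Sds) to 0.21 (Hal) on the log2 scale, and tumor 4 combined the lowest Sds and Hal with the highest Prodh, Hpd, Hgd and Tat among tumors. With DKO animals 1 and 2 left out of the fit, tumor against wild-type liver gave 0.25 for Tat and 0.53 for Prodh, both now positive, and a median of −0.48 over the 9.

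**Figure D3:**
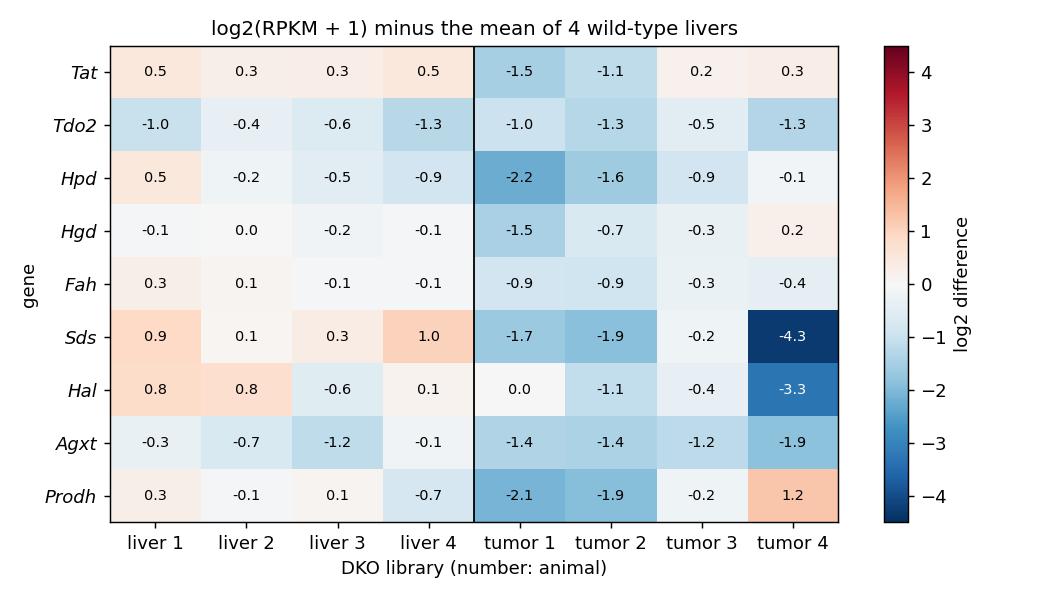
Log2 difference of each DKO liver and tumor from the mean of the 4 wild-type livers for the 9 enzymes, by animal number (color and printed value, log2(RPKM + 1)). Tumors 1 and 2 are negative for most enzymes, tumor 3 is lowest for Agxt (−1.17) and next lowest for Hpd (−0.86), and tumor 4 ranges from −4.30 for Sds to 1.24 for Prodh.

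Zone markers of the liver lobule also differed among these tumors. The summed level of 8 periportal markers (Pck1, G6pc, Cps1, Ass1, Arg1, Gls2, Cyp2f2 and Hsd17b13, without Sds and Hal) was 3083 to 4294 RPKM in wild-type livers, 3922 to 4464 in DKO livers, and 3044, 1522, 4358 and 436.6 in tumors 1 to 4. Sds and Hal were also lowest in tumor 4, which had the lowest periportal sum. In tumor 1, whose sum of 3044 was just under the lowest wild-type liver, Sds (30.5 RPKM) was nonetheless below every liver. Hal in tumor 1 (76.0 RPKM) was within the wild-type range. The summed level of 8 pericentral markers (Glul, Cyp2e1, Cyp1a2, Oat, Slc1a2, Lgr5, Axin2 and Rhbg) was 4970 to 7728 RPKM in wild-type livers, 4006, 3237, 2758 and 893.2 in DKO livers 1 to 4, and 403.2, 4507, 2321 and 14140 in tumors 1 to 4. Tumor 4 had the highest pericentral sum of the 12 libraries together with the highest Prodh, and tumor 1 the lowest of both. Tumor 2 did not follow that pairing: its sum was above every DKO liver and below every wild-type liver, while its Prodh, at 20.5 RPKM, was the next to lowest of the 12. Its markers were mixed. Glul (942 RPKM), Slc1a2 (111), Rhbg (40.8), Axin2 (10.3) and Lgr5 (4.28) were above every liver. Oat (127 RPKM) was below every liver, and Cyp2e1 (2878) and Cyp1a2 (393) were within the range of the livers. The sums are mostly Cyp2e1 in all libraries but tumor 4, where it was 6821 of 14140 RPKM. No marker of either list was at 0 in any library. The part of zonal identity in the levels of the 9 enzymes was not tested.

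**Figure D4:**
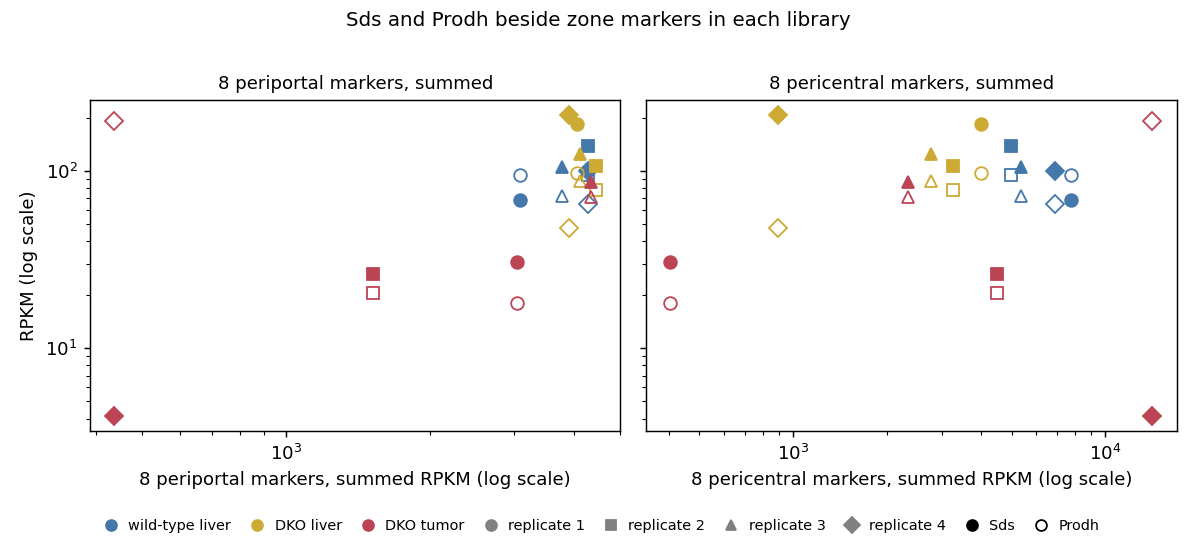
RPKM of Sds (filled) and Prodh (open) in each library against the summed RPKM of 8 periportal markers (left) and 8 pericentral markers (right), all axes logarithmic. Tumor 4 (red diamonds) lies at the lowest periportal sum, 436.6, and the highest pericentral sum, 14140, with the lowest Sds and the highest Prodh.

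Clock genes also differed among the libraries. Arntl, a core gene of the circadian clock, was at 11.2 and 9.95 RPKM in DKO livers 1 and 2 and 9.24 and 10.9 in tumors 1 and 2, and at 0.48 to 2.26 RPKM in the other 8 libraries. Tumors 1 and 2, which had the lowest Tat, Hpd, Hgd and Prodh, are thus from the same 2 animals as the high Arntl. Dbp, a clock output gene, was at 3.51 to 38.6 RPKM in the 8 DKO libraries and 40.7 to 110.0 in wild-type livers. It also split the DKO animals. Dbp was at 4.28 and 3.77 RPKM in DKO livers 1 and 2 and 3.51 and 4.85 in tumors 1 and 2. In animals 3 and 4 it was at 30.8 and 21.7 RPKM in liver and 15.1 and 38.6 in tumor. Tat, Hpd, Hgd and Prodh were not below the wild-type range in the livers of animals 1 and 2. Hpd was at 1125 and 709 RPKM and Tat at 599.9 and 512 RPKM in DKO livers 1 and 2. Tdo2, also low in tumors 1 and 2, was at 409 and 633 RPKM there, where the lowest wild-type value was 692. Agxt in DKO liver 2 (89.8 RPKM) was likewise under the lowest wild-type value, 99.3. The part of clock phase in these levels was not tested.

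Other enzymes of amino acid breakdown were listed by pathway, 75 genes in the data, of which 73 passed the filter of 0.5 RPKM in at least 4 libraries. Against wild-type liver, 1 of the 73 fell in tumors and none rose. A negative log2 difference was found for 69, beside 52.9% of all genes (median of the 73, −0.59). Of the 73, 15 lay below wild-type liver without overlap (6.32% of all genes did). An unadjusted limma p below 0.05 was found for 39 of the 73, 38 lower, which is 53.4% beside 19.2% of all genes. In DKO liver none was called, with a median of −0.11, and voom also called none. There 5 had an unadjusted limma p below 0.05, 3 of them higher, which is 6.85% beside 12.4% of all genes. Tumor against DKO liver called none by limma or voom, with a median of −0.45 and 29 lower at an unadjusted limma p below 0.05, 39.7% beside 16.1% of all genes in either direction. By pathway, the number of negative values in tumor against wild-type liver was 4 of 4 for phenylalanine and tyrosine, 6 of 9 for tryptophan, 2 of 2 for histidine, 13 of 13 for serine, glycine and glyoxylate, 10 of 10 for proline and glutamate, 13 of 13 for methionine and cysteine, 17 of 18 for branched-chain amino acids and 4 of 4 for lysine.

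Gnmt was the gene that fell. It encodes glycine N-methyltransferase, which uses up surplus S-adenosylmethionine. It had 1052, 792, 726 and 776 RPKM in wild-type livers, 1066, 881, 500.7 and 508 in DKO livers, and 247, 151, 365 and 295.5 in tumors. The tumors lay below every liver of either genotype, at −1.71 ± 0.31 (SE; limma adjusted p = 0.0215) against wild-type liver. This call was lost among libraries with tag L03 (−1.57, adjusted p = 0.224), without DKO animals 1 and 2 (adjusted p = 0.138), and without wild-type liver 1 (0.0891) or 4 (0.0816) or tumor 1 (0.0585) or 2 (0.0688). Gnmt was also among the 5 genes whose log2(RPKM + 1) was most like the mean of the 9 standardized enzymes over the 12 libraries, with a Pearson r of 0.946.

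Next to Hgd and Fah in tyrosine breakdown, Gstz1, the maleylacetoacetate isomerase, was at 552 ± 72.5 RPKM in wild-type liver and 332.5 ± 24.4 in tumor without overlap (limma adjusted p = 0.0632), and Qdpr, which recycles the cofactor of phenylalanine hydroxylase, at 264 ± 53.4 and 175 ± 87.6 (adjusted p = 0.224; SD, n = 4 each). Downstream of Tdo2, Haao, hydroxyanthranilate dioxygenase, was at 258 ± 51.8 RPKM in wild-type liver, 246 ± 62.7 in DKO liver and 136 ± 35.8 in tumor (tumor against wild-type liver, limma adjusted p = 0.0683). Kynu, kynureninase, was at 55.1 ± 13.1, 41.8 ± 10.2 and 25.8 ± 10.2 RPKM in the same order (adjusted p = 0.0669). Tdo2 and Haao thus had unlike DKO livers: all 4 were below wild-type liver for Tdo2, while the Haao values of DKO and wild-type livers overlapped. The difference between the genes was not tested. After Hal in histidine breakdown, Uroc1, urocanase, was at 166, 78.7, 134 and 23.3 RPKM in tumors 1 to 4, and Ftcd at 81.8, 56.3, 91.5 and 13.1, both lowest in tumor 4 as Hal was (limma adjusted p = 0.509 and 0.262 against wild-type liver).

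In the list for serine, glycine and glyoxylate, Hoga1 (listed in the data as 0610010D20Rik) is the aldolase that releases glyoxylate from hydroxyproline. It was at 108.5 ± 28.0 RPKM in wild-type liver and 58.0 ± 18.6 in tumor (SD, n = 4 each, limma adjusted p = 0.0759). Dmgdh of the same list, dimethylglycine dehydrogenase, was at 133 ± 27.6 and 76.2 ± 20.1 RPKM (SD, n = 4 each, limma adjusted p = 0.0824). Prodh2, which oxidizes hydroxyproline, did not share the spread of Prodh: its tumors had 35.8, 35.7, 42.8 and 32.9 RPKM, all below the wild-type livers at 50.3 to 62.6 (limma adjusted p = 0.0923). Abat, which breaks down GABA, was at 91.1 ± 20.7 RPKM in wild-type liver and 51.2 ± 19.1 in tumor (adjusted p = 0.108), and Cbs, the cystathionine synthase of methionine breakdown, at 147 ± 28.6 and 83.1 ± 7.90 (adjusted p = 0.0959). For the branched-chain enzymes Auh and Acadsb the means were 29.7 and 16.1, and 55.0 and 32.2 RPKM (limma adjusted p = 0.0596 and 0.0938). For the lysine enzymes Dhtkd1 and Aass they were 48.8 and 27.6, and 97.5 and 61.6 RPKM (limma adjusted p = 0.104 and 0.120).

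**Figure D5:**
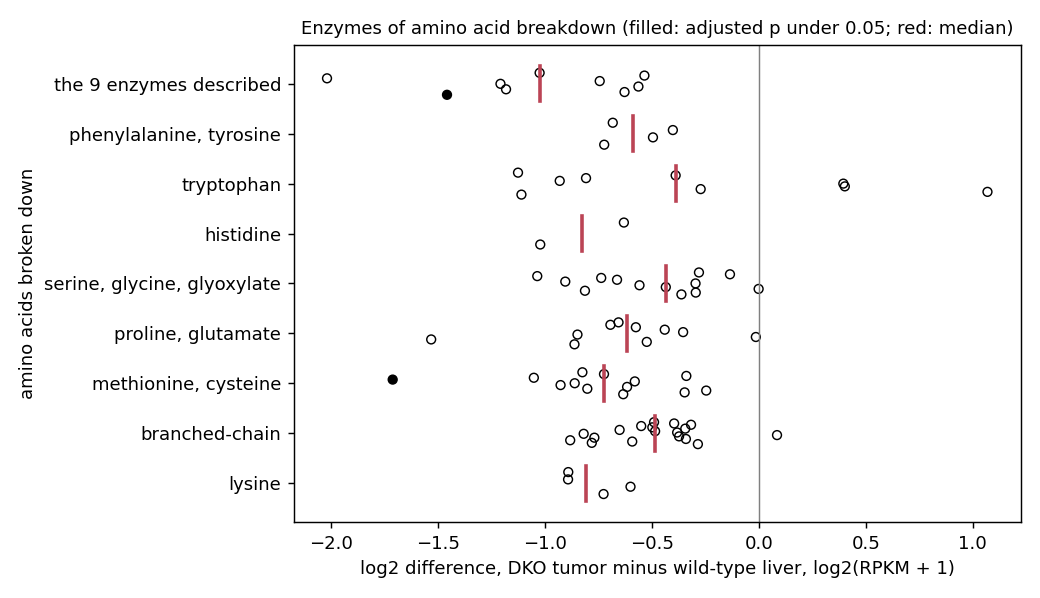
Log2 difference of DKO tumor from wild-type liver for the 9 enzymes and for 73 other enzymes by pathway (log2(RPKM + 1)); filled points have a limma adjusted p under 0.05 and red lines are medians. Agxt and Gnmt are the filled points, and medians lie between −1.02 for the 9 and −0.39 for the tryptophan list.

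Among 14 transcription factors and hormone receptors known to act on members, none passed in any of the 3 comparisons with limma or voom. In tumor against wild-type liver 7 had an unadjusted limma p below 0.05, 6 of them lower, in DKO liver against wild-type liver 2 did, both higher, and in tumor against DKO liver 6, all lower. Klf15, a factor that activates amino acid breakdown genes in fasting, was at 59.5 ± 12.6 RPKM in wild-type liver, 59.5 ± 12.9 in DKO liver and 31.4 ± 8.61 in tumor (tumor against wild-type liver −0.92 ± 0.23 SE, limma adjusted p = 0.0554), with no overlap between tumors and livers. Cebpa, a factor that drives metabolic genes of hepatocytes, was at 113 ± 24.8, 100.3 ± 22.7 and 59.7 ± 12.8 RPKM (−0.91 ± 0.23 SE, limma adjusted p = 0.0640). Nr3c1, the glucocorticoid receptor, was at 18.7 ± 2.08, 17.8 ± 1.29 and 18.1 ± 2.36 RPKM, overlapping in all groups. Of 7 glucocorticoid-responsive genes none passed with limma or voom either. In tumor against wild-type liver 4 of the 7 were positive and 3 had an unadjusted limma p below 0.05: Pck1 and Per1, lower, and Fkbp5, higher (0.59). In DKO liver against wild-type liver 4 had one, all higher, and in tumor against DKO liver 4, all lower, beside the shares of all genes given for the enzymes above. Pck1, the gluconeogenic enzyme gene, was at 170, 51.5, 521.5 and 25.8 RPKM in tumors 1 to 4 and Per1 at 2.48, 2.11, 5.68 and 4.95, so tumor 3 was highest in both.

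Across the 12 libraries Fah tracked the mean of the other 8 enzymes most closely (Pearson r = 0.945) and Hpd next (0.832), while Hal did so least (0.375), and Tat, Tdo2, Prodh and Sds had r of 0.520 to 0.568. Outside the set, the 5 genes most like the mean of the 9 were Ugt3a1 (r = 0.974), Slc25a15 (0.952), Gstk1 (0.951), Gas1 (0.948) and Gnmt (0.946), each over 12 libraries that also share their group, depth and tag. Ugt3a1 was at 44.1 ± 6.73 RPKM in wild-type liver, 29.9 ± 12.2 in DKO liver and 9.70 ± 6.60 in tumor, and Gstk1 at 205 ± 46.6, 191 ± 44.6 and 108 ± 26.4 (SD, n = 4 each). Slc25a15, the mitochondrial ornithine carrier, was at 150.2 ± 10.2, 130.4 ± 13.7 and 81.7 ± 27.4 RPKM, and Gas1 at 4.32 ± 0.434, 4.57 ± 2.37 and 0.957 ± 1.25.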

How the data were processed

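Per the labels, polyadenylated RNA of 12 mouse livers and liver tumors was made into SOLiD libraries. The deposited values are RPKM, made by the authors. The submitters' processing notes name BWA and the mm9 build, and the counter and any filter are not given in the sources used here. Whether mm9 positions count from 0 or 1 is not stated. Values times exon length were whole reads within 0.05 of a read for at least 99.991% of values, which gives the depth (7.985 to 15.956 M reads, mega), and 1 read in 2 kb of exons is 0.0313 to 0.0626 RPKM. Reads carry no molecular identifiers.

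For each symbol the transcript with the longest exons was kept. The 11351 genes at 0.5 RPKM or more in 4 or more libraries were fitted on log2(RPKM + 1) over 12 libraries and 3 group means with limma 3.58.1 (trend and robust shrinkage; R 4.3.3), two-sided, and adjusted by Benjamini-Hochberg over all 11351 at 0.05. The offset of 1 understates changes of low genes. On simulated data for tumor against wild-type liver (11351 genes), 64 to 71% of 2-fold and 93 to 96% of 4-fold changes were recovered. The simulated libraries were independent, and each gene had the same spread in every group. Some members spread wider in tumors (Prodh SD 81.7 RPKM, and 15.6 in wild-type liver), so these shares need not hold for them. P-values measure the spread between libraries within groups, and the main fit does not use which animal a DKO library came from. DKO liver and tumor of 1 number share an animal code, which pairs them. Their deviations from the group means correlated at 0.117, 0.347, 0.368 and 0.003 for animals 1 to 4. Wild-type numbers pair nothing.

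The members and all gene lists were chosen with earlier results of these data known. Named genes are the 9 members, E2f7 and E2f8, and from each list every called gene and the 2 with the smallest p in tumor against wild-type liver. The 5 genes most like the members were taken by Pearson correlation. Nr3c1, Arntl, Dbp, Fkbp5 and the hepatocyte and zone markers were named after their values were seen. The lymphocyte marker list is not reported here. Amdhd1 matched no symbol, and Tdh and Dao were not tested because of low values. Upstream sequences are from RefSeq (GRCm38.p6), and no coordinates were converted between builds. Alternatives were other scalings, offset, filters, shrinkage, libraries, tag, blocks, test and transcript, and leaving out libraries. Python 3.11.15, numpy 2.4.6, pandas 2.3.3 and matplotlib 3.10.9 did the rest.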

Additional observations from a re-analysis of the deposited data

How the results depend on the processing

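For tumor against wild-type liver the 1 member called became 2 with median-of-ratios scaling and 0 with quantile normalization, no filter, the replicate block, the L02 and L03 tag as a covariate, tag L03 alone, and without DKO animals 1 and 2. It was 0 to 3 when a library was left out. The median of −1.02 became −0.71 with quantile normalization and −0.48 without those animals. Genes called in all (216, or 64.8% risen) became 615 with median-of-ratios scaling, 478 with quantile normalization, 112 with no filter, 128 with the replicate block, 3 with the tag covariate, 25 within L03 and 10 without animals 1 and 2, and 16 to 413 with a library left out (16 without wild-type liver 4, 413 without tumor 3). Voom on recovered reads called 196.

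Between DKO and wild-type livers the 0 genes called became 1 with median-of-ratios scaling, 1 with the 8 libraries alone and 1 without animals 1 and 2, and 0 to 2 with a library left out, where the median of the 9 ran from −0.11 to 0.10. For tumor against DKO liver the 1 gene called became 24 with quantile normalization (54.2% risen), 0 with the stricter filter, 55 with the 8 libraries alone, 71 with the replicate block, which called none of the 9, 0 with the tag covariate and 0 without animals 1 and 2, whose median was −0.14. With a library left out it was 1 to 363, and 0 to 1 of the 9 was called. Median-of-ratios scaling shifted the median of all genes by 0.11 in that comparison.

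Signs turned without DKO animals 1 and 2 for Tat (0.25) and Prodh (0.53) in tumor against wild-type liver, for Fah (−0.08) and Hal (−0.21) in DKO liver, and for Tdo2 (0.024), Hpd (0.19), Hgd (0.058) and Prodh (0.84) in tumor against DKO liver. They also turned for Hgd in DKO liver (0.01) and Tdo2 in tumor against DKO liver (0.008) with quantile normalization, and for Fah in DKO liver with median-of-ratios scaling (−0.054), the tag covariate (−0.10) and L02 alone (−0.10). With a library left out, DKO liver against wild-type liver ran from −0.045 to 0.15 for Fah and from −0.23 to 0.11 for Prodh. The cause was not tested. Over the settings that do not leave out a single library, 322 of 342 values of the 9 genes kept direction and call. Only Agxt in tumor against wild-type liver was called to begin with, and it kept its call in 7 of 13 such settings. The replicate block changed no other call among the 9 than that of Agxt against wild-type liver (adjusted p = 0.0644), where the numbers pair no animals.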
